A study of Mus musculus with 6 samples.

Results

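Neuropeptides are made as longer precursor proteins, packed into dense-core granules, cut by prohormone convertases and released to act on G protein-coupled receptors. In the peripheral nervous system they are known from sensory, sympathetic and motor neurons, and several of their precursor genes are switched on in sensory neurons whose axons have been cut. A sciatic nerve stump holds axons, Schwann cells, fibroblasts, vessels and immune cells but few neuronal cell bodies, and mRNA can reach axons by transport.

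The 10 neuropeptide precursor genes described here were Calca, Calcb, Tac1, Adcyap1, Vip, Penk, Npy, Gal, Sst and Scg2, chosen by gene symbol out of 54309 genes listed. They were measured by poly-A RNA sequencing of the left sciatic nerve's proximal stump in C57BL/6 mice aged 6 to 8 weeks, taken 24 h after the nerve had been cut at mid-thigh (axotomy). There were 3 female and 3 male libraries, each made from the pooled nerves of 2 mice. All 6 libraries came from cut nerves. Nerves of sham-operated mice were not used here, and the values therefore describe injured nerve and not a change with injury. The comparison asked which precursor mRNAs differed between the sexes in the injured nerve.

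Total estimated counts were 49158283 to 69848769 per library, and 18424 genes passed the filter on low counts. The labelled tissue was borne out by its Schwann cell markers, which summed to 19400 to 25400 TPM in females and 42900 to 52000 in males (a library-scaled level corrected for transcript length). The Y-linked genes Ddx3y and Eif2s3y had 139 and 147 counts in the library labelled female 3, against 0 of each in females 1 and 2. The library labelled male 1 held 193 counts of Xist, against 6 and 16 in males 2 and 3. Results that could rest on either library are also given without it. In these bulk samples, fewer cells of a type and less RNA per cell cannot be told apart.

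Of the 10 precursor genes, 7 passed the filter and were tested. Values are CPM (counts scaled by normalised library size) unless TPM is named, and each log2 fold change (male minus female, ± SE) is from edgeR's quasi-likelihood test, adjusted over all genes tested. Sst and Scg2 were past an adjusted p of 0.1, both higher in males. Adcyap1, Npy, Calca, Penk and Gal were not, and Tac1, Vip and Calcb fell under the filter. Among all tested genes 5.27% passed the threshold and 3.81% passed it higher in males. Sst, Scg2 and Adcyap1 passed the filter through the male libraries, so the number of members called among those tested says little by itself.

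**Figure D1:**
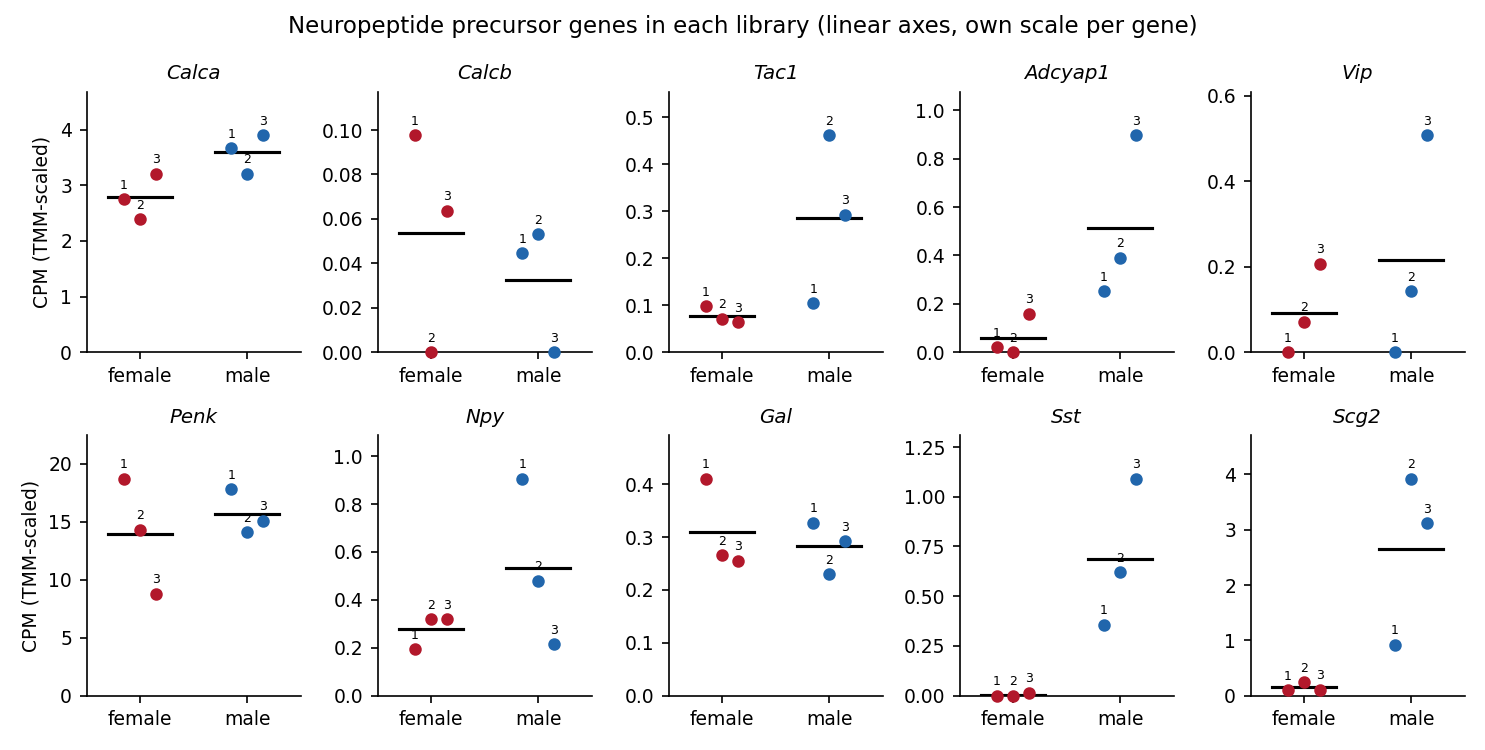
CPM of each precursor gene in each library, on linear axes that start at 0 and differ between genes; points are libraries with their replicate number and black bars are means of n = 3. Sst and Scg2 lie near 0 in females and between 0.356 and 1.09 and between 0.920 and 3.92 in males, while Calca, Penk and Gal overlap between the sexes.

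Compared by TPM, Penk and Calca stood above the other 8 precursors in both sexes. Penk averaged 17.0 TPM in females and 18.7 in males, and Calca averaged 6.21 and 7.48. Penk had a higher mean TPM than 64.7% of tested genes and Calca than 45.5%. Both were apart from the next precursor in the order, with no overlap between libraries. Npy came after them in both sexes at 1.11 and 2.11 TPM. In females Gal followed at 0.745 TPM and overlapped with Npy, and the 6 others lay between 0.0149 (Sst) and 0.146 (Tac1) TPM with each overlapping its neighbour. In males Sst took the place beside Npy at 2.11 TPM, followed by Scg2 at 1.36, Gal at 0.726, Tac1 at 0.578, Adcyap1 at 0.295, Vip at 0.263 and Calcb at 0.0704 TPM, again with each overlapping its neighbour. Summed over the 10 genes, the level was 31.6, 26.8 and 18.3 TPM in females 1, 2 and 3 and 34.3, 31.2 and 35.4 TPM in males 1, 2 and 3, and Penk alone made 52.7% to 73.1% of it.

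Calca encodes both calcitonin, a hormone of calcium balance, and alpha-CGRP, the vasodilator peptide of pain-sensing axons, by alternative splicing. Calcb, its neighbour, encodes beta-CGRP. Calca lies on chromosome 7 from 114230712 to 114235592 on the minus strand of GRCm39, and Calcb on the plus strand from 114317878 to 114322603. The coding part of the CGRP exon (the fourth exon of transcript Calca-201, chr7:114231678-114231834), the matching exon of Calcb (chr7:114321210-114321369) and the coding part of the calcitonin exon (the fourth exon of Calca-202, chr7:114232840-114233020) are shown because they decide to which peptide a read belongs. Capitals mark bases of the CGRP exons with no identical partner in the other gene, and the calcitonin exon is in lower case throughout.
Calca CGRP exon: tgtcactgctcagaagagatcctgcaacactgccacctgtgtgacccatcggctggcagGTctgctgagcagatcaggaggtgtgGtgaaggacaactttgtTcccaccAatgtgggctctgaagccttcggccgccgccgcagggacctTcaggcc
Calcb CGRP exon: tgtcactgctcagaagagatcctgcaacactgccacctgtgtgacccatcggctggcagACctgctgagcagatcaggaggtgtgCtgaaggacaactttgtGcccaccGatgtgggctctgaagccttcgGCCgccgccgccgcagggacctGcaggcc
Calca calcitonin exon: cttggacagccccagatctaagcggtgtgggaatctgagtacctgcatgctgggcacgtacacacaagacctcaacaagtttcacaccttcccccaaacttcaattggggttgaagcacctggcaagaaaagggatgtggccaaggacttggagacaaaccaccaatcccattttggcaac
The CGRP exons were identical at 151 of 157 aligned bases (96.2%), and the Calcb exon held 3 further bases. The longest run shared by Calca-201 and Calcb-201 was 60 bases, and 33 of the 1260 stretches of 31 bases in Calcb transcripts (2.62%) were also in Calca. The counts of Calca and of Calcb summed to whole numbers (within 0.01) in 6 of 6 libraries, where a read divided between genes usually leaves fractions.

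Calca was present in every library, at 2.75, 2.39 and 3.21 CPM in females 1, 2 and 3 and at 3.67, 3.21 and 3.90 CPM in males 1, 2 and 3. The highest female library and the lowest male library were level, and the others kept apart. The log2 fold change was 0.37 ± 0.19 (adjusted p = 0.328). On the TPM scale the sexes did not overlap, with 6.11 to 6.30 in females and 6.73 to 8.38 in males, a difference that was not put to a test. Calcb had 5, 0 and 4 counts in females and 3, 3 and 0 in males, at or near the 3 counts that a count of 0 still allows, so no difference was detectable at this depth.

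Most Calca counts fell on CGRP transcripts. Calca-201, the full CGRP transcript, held 81.1%, 87.0% and 93.9% of the gene's counts in females and 93.9%, 82.5% and 94.1% in males. The calcitonin exon spans chr7:114232528-114233020 and is in Calca-202 and Calca-207, which together held 21.3, 4.0 and 7.5 estimated counts in females and 12.2, 23.6 and 3.7 in males. These 2 transcripts share part of their sequence with the CGRP transcripts: 36.5% of the stretches of 31 bases in Calca-201 are also in Calca-202, so the split is Salmon's estimate. Calca-206 held 1.1% to 7.4% of the counts and Calca-203, with 3.6 counts in female 2 and 0 elsewhere, was the least counted CGRP transcript. Calca-204 and Calca-205, which hold neither exon, were at 0 in every library.

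The share of Calca counts on transcripts without the calcitonin exon was 84.9%, 97.0% and 96.3% in females and 95.1%, 87.0% and 98.2% in males. The lowest share in each sex lay apart from the others, and its 95% Wilson interval, which covers counting error only, was 78.3% to 90.0% in female 1 and 81.0% to 90.9% in male 2. The means were 92.7% ± 6.81 (SD, n = 3) in females and 93.4% ± 5.77 (SD, n = 3) in males. A two-sided exact permutation test of the 0.67 point difference gave p = 0.8, where 3 libraries against 3 cannot go below 0.1. The share without the calcitonin exon was thus high in all 6 libraries and its spread within a sex exceeded the difference between the sexes.

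**Figure D2:**
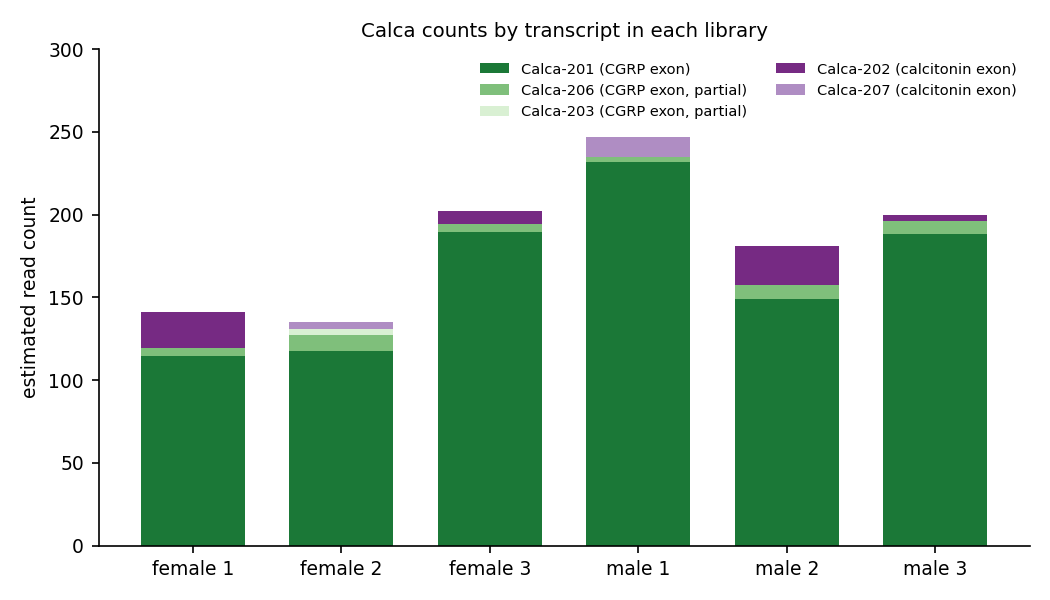
Estimated counts of Calca in each library, stacked by transcript, with transcripts that hold the CGRP exon in green and those that hold the calcitonin exon in purple. Calca-201 makes 81.1% to 94.1% of each bar, and the purple part is largest in female 1 (21.3 counts) and male 2 (23.6 counts).

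Tac1, the precursor of substance P and neurokinin A, which sensory axons release beside CGRP, had 5, 4 and 4 counts in females 1, 2 and 3 and 7, 26 and 15 in males. Every male library lay above every female one by CPM, an order that 13.9% of all tested genes shared. Without a filter on low counts its log2 fold change was 1.86 ± 0.68 (adjusted p = 0.185). Without male 1 it passed the filter and the threshold (2.26, adjusted p = 0.0984), while without female 1, 2 or 3 it passed the filter and not the threshold (2.04, 1.80 and 1.73, adjusted p = 0.377, 0.314 and 0.215). Tac1 lies on chromosome 6 from 7554120 to 7565834.

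Adcyap1, the precursor of PACAP, was at 0.0195, 0 and 0.159 CPM in females and at 0.252, 0.39 and 0.897 CPM in males. Each male library was above each female one, with female 3 the closest to the males. The log2 fold change of 2.98 ± 0.96 did not pass the threshold (adjusted p = 0.147), but it did by the Wald test of DESeq2 (adjusted p = 0.0414), without a filter (adjusted p = 0.084) and without female 3 (5.47, adjusted p = 0.0527). Adcyap1 lies on chromosome 17 from 93506397 to 93515189, and its exons overlap those of Gm32465 on the other strand. Vip, the precursor of vasoactive intestinal peptide (chromosome 10, 5589186 to 5599956), had 0, 4 and 13 counts in females and 0, 8 and 26 in males, and 1 library of each sex held none.

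Penk, the precursor of the enkephalins, which act on delta and mu opioid receptors, was the highest of the 10 and lies on chromosome 4 from 4132722 to 4141856. It measured 18.7, 14.3 and 8.78 CPM in females and 17.8, 14.1 and 15.1 CPM in males. The female libraries spread more widely than the male ones and enclosed them. Its log2 fold change was 0.17 ± 0.26 (adjusted p = 0.750), and without female 3 it turned to -0.08. Transcript Penk-202 held 18.1% to 26.2% of the counts in females and 14.1% to 18.9% in males. The gene's counts summed to whole numbers (within 0.01) in 4 of 6 libraries, and its exons overlap A830012C17Rik on the other strand.

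Npy, a peptide of sympathetic axons that injured sensory neurons also make (chromosome 6, 49799026 to 49806489), was at 0.195, 0.319 and 0.318 CPM in females and at 0.905, 0.479 and 0.214 CPM in males. Males 1 and 2 were above all females and male 3 was among them. The log2 fold change was 0.94 ± 0.54 (adjusted p = 0.360), and without male 1 it was 0.32 (adjusted p = 0.788). Gal, the precursor of galanin, which is known for its induction in axotomised sensory neurons (chromosome 19, 3459912 to 3464881), had 21, 15 and 16 counts in females and 22, 13 and 15 in males. The sexes overlapped, the log2 fold change was -0.12 ± 0.38 (adjusted p = 0.882) and its sign was not stable across alternatives.

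Sst, the precursor of the inhibitory peptide somatostatin (chromosome 16, 23707321 to 23711733), was nearly absent from the female libraries. It had 0, 0 and 1 counts in females 1, 2 and 3 and 24, 35 and 56 in males 1, 2 and 3, or 0.356, 0.620 and 1.09 CPM in males. All 3 male libraries were above all females, and the ratio of summed counts, scaled for depth, was 112 with an exact 95% interval of 19.7 to 4460 for counting error only. The log2 fold change was 6.43 ± 0.87 (adjusted p = 0.0347).

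Scg2, which encodes secretogranin II, a granule protein and the precursor of secretoneurin (chromosome 1, 79412386 to 79417837), showed the same direction. It had 5, 14 and 7 counts in females and 62, 221 and 160 in males, or 0.0976, 0.248 and 0.111 CPM against 0.920, 3.92 and 3.12 CPM. Male 1 was the lowest of the males and still above each female library. The log2 fold change was 4.10 ± 0.64 (adjusted p = 0.0366) and the ratio of summed counts was 16.6 (11.2 to 25.7). The split between Scg2-201 and Scg2-202, which differ by an intron within the coding sequence, was not steady: Scg2-201 held 0%, 32.2% and 100% of counts in females and 90.6%, 63.1% and 57.8% in males.

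Both calls held without female 3, at 8.28 (adjusted p = 0.0443) for Sst and 3.91 (adjusted p = 0.0513) for Scg2, and without male 1, at 6.73 (adjusted p = 0.0240) and 4.51 (adjusted p = 0.0126). They were lost without female 1, with adjusted p = 0.157 for Sst and 0.165 for Scg2, and without male 3, with adjusted p = 0.123 and 0.140. The log2 fold changes in those fits were 6.04 and 3.87 without female 1 and 5.94 and 3.97 without male 3.

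Most tested central neuron and central glia markers were higher in males, as Sst and Scg2 were, but not all. Of 12 central neuron markers all were tested and 10 passed the threshold higher in males, and their summed level was 5.80, 5.52 and 7.20 TPM in females and 14.6, 26.3 and 31 TPM in males. Snap25, which peripheral neurons also express, made 68.6% to 85.7% of that sum, and the other 11 markers summed to 1.69, 0.847 and 1.03 TPM in females and 3.65, 8.24 and 8.66 TPM in males. Central and peripheral neurons were not measured apart, so none of the 12 markers is shown here to come from central cells alone. Of 12 central glia markers 11 were tested and 7 passed higher in males. Over all tested genes 3.81% passed higher in males. The summed level of the glia markers overlapped, at 74.5 to 97.9 TPM in females and 80.8 to 93.3 in males, and Gja1, Slc1a3 and Aldh1l1 made most of it. Of the 11 tested glia markers 8 had a positive and 3 a negative log2 fold change. Gja1 (-0.19, adjusted p = 0.513), Slc1a3 (-0.31, adjusted p = 0.307) and Aldh1l1 (-0.01, adjusted p = 0.976) were the negative ones. Opalin overlapped between the sexes and did not pass (1.27, adjusted p = 0.415). Ermn and Olig2 were at 0 in all 3 females, and Mog measured 0, 0 and 0.0250 TPM in females against 0.803, 1.26 and 1.42 TPM in males. The part of these cells in the Sst and Scg2 results was not tested.

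Markers of peripheral neurons moved less. Of 11 sensory neuron markers 8 were tested, 5 with a positive and 3 with a negative log2 fold change. Of the tested markers 0 passed the threshold by edgeR, DESeq2 or limma-voom, and 1 had an unadjusted p under 0.05 by edgeR. Scn10a, Scn11a and Mrgprd fell under the filter. Every male library was above every female one for Pou4f1, and the reverse held for Scn11a. The summed level of the 11 markers was 10.8 to 13.4 TPM in females and 14.7 to 15.1 in males, without overlap, most of it Prph. The 11 autonomic and motor neuron markers summed to 1.40 to 2.78 TPM in females and 2.55 to 2.93 in males, with Mnx1 at 0 in all 6 libraries. Of 10 Schwann cell markers 5 passed higher in males, against 3.81% of all tested genes. The summed level of the 10 Schwann cell markers did not overlap between the sexes.

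**Figure D3:**
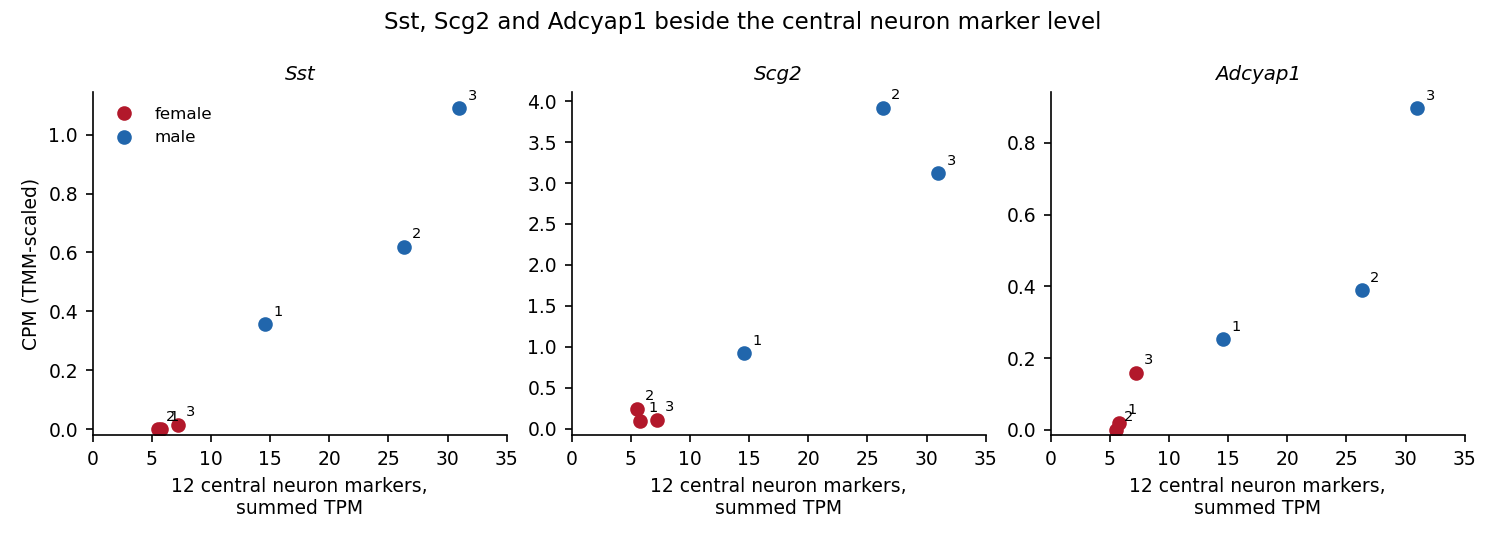
CPM of Sst, Scg2 and Adcyap1 against the summed TPM of 12 central neuron markers, most of it Snap25, 1 point per library with its replicate number, females red and males blue. The 3 females lie at 5.52 to 7.20 TPM and near 0 CPM for Sst, and the 3 males lie at 14.6 to 31 TPM with higher values of all 3 genes.

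Promoter windows from RefSeq (250 bases before the annotated start) were found for 8 of the 10 genes, in 9 windows. The cAMP response element TGACGTCA, a palindrome of 8 letters and so the same on both strands, was present in the windows of Sst and Scg2 and in 2 of these 9 windows, against 1.55% of 32851 windows of all genes. Each is shown with its flanks, the element in capitals, from the minus strand of GRCm39 at chr16:23709624-23709653 for Sst and chr1:79417793-79417822 for Scg2.
Sst: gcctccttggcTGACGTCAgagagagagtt
Scg2: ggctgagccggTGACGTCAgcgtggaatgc
The element began 48 bases before the RefSeq start of Sst and 68 bases before that of Scg2. In GENCODE M39 both stretches lie within the gene and overlap annotated exons. Neither overlaps a coding part of the gene's transcripts that were counted here. The shorter TGACG, searched on both strands and contained in the full element, was in 7 of the 9 windows, those of Calca, Tac1, Vip, Sst, Scg2 and both of Adcyap1, and in 17.8% of all windows. No window of Gal or Npy held it, and neither of the 2 windows of Pdyn, a dynorphin precursor gene outside the 10, held it or the full element. These are matches of letters, and binding was not measured. Enrichment over all windows and a link to the difference between the sexes were not tested.

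Over the 6 libraries, the tested protein-coding genes whose log2 CPM was most like that of Sst were Ptgds, Rab4a and St8sia5 (Pearson r of 0.9982, 0.9970 and 0.9964). For Scg2 they were Caln1, Gm1673 and Fbxo7 (0.9955, 0.9931 and 0.9921). Those for Calca were Wipi2, Fam131b and Ppfia3 (0.9937, 0.9872 and 0.9857). For Adcyap1 they were Gpr146, Ubxn6 and Dtwd2 (0.9949, 0.9946 and 0.9942). Gal was most like Hmg20b, Atp23 and Gtpbp1 (0.9838, 0.9776 and 0.9717). Penk was most like Arsa, Adamts7 and Trim65 (0.9795, 0.9772 and 0.9753). These are the best of 13488 or 13489 genes at n = 6, so high values were bound to occur, and the points share libraries and depth. Between members, r was 0.953 for Sst and Scg2, 0.918 for Sst and Adcyap1 and 0.934 for Calca and Adcyap1, while Penk and Calca had an r of -0.009.

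The genes around the precursors were described from lists of 112 genes, 73 of which were tested. Among them 16 passed the threshold, 13 higher in males and 3 higher in females. Over all tested genes 5.27% passed and 3.81% passed higher in males. Those shares are also the background for the counts of each list below. Without female 1 or male 3 the number of companions called was 0 in edgeR, in fits where 1 and 7 of all genes passed. In those fits 24 and 26 companions had an unadjusted p under 0.05. Of the 16 genes, 7 remained past the threshold without female 2, 16 without female 3, 9 without male 1 and 9 without male 2. Cadps, Chga, Pdyn, Ptprn2 and Scg5 lost their calls only without female 1 or male 3 among the 6 fits that left out a library, and the 11 others also without at least 1 more.

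Of 48 other peptide precursors 23 were tested, and Pdyn and Npff passed, both higher in males. Pdyn, the precursor of dynorphins, was at 0 in all 3 females and at 0.252, 0.425 and 0.39 CPM in males, at least 6.70-fold higher against a floor of 3 counts per library. Npff measured 2.81, 2.78 and 2.86 CPM in females and 4.72, 5.19 and 4.11 in males (log2 fold change 0.73 ± 0.17, adjusted p = 0.0820), and it shares exon sequence on its strand with Gm28047. Its call held without female 3 and was lost without any other library and with library size alone (adjusted p = 0.105 by edgeR). Tac2, named after its values were seen, was also at 0 in all females, at 0.119, 0.585 and 0.429 CPM in males, and fell under the filter. By edgeR without a filter Tac2 passed (7.44, adjusted p = 0.0102), a value that depends on the prior count. The precursors with the highest mean TPM were Ucn2, Adm and Apln, and for Ucn2 the log2 fold change was -0.03 ± 0.27 (adjusted p = 0.964).

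Among the 27 genes of the list of receptors and their partners 13 were tested and 2 passed. Calcrl, the CGRP and adrenomedullin receptor subunit, was higher in females, at 20.7, 25.4 and 24.1 CPM against 13.8, 15.2 and 16.4 CPM in males (log2 fold change -0.63 ± 0.13, adjusted p = 0.0592), and its call held without female 3 and was lost without any other library. Adcyap1r1, the PACAP receptor, was higher in males, at 20.1, 21.7 and 21.7 CPM against 12.8, 16.4 and 11.7 CPM (0.64 ± 0.15, adjusted p = 0.0811), a call that was lost with an offset for transcript length, with library size alone and without any library but female 2 or 3. By TPM its sexes overlapped. Ramp1, the partner of Calcrl in the CGRP receptor, did not pass (0.50 ± 0.19, adjusted p = 0.194), nor did Ramp2 (0.29 ± 0.15, adjusted p = 0.326). Ramp2 was the most abundant gene of this list by mean TPM, with Crcp and Calcrl next. The opioid receptors Oprd1, Oprm1 and Oprk1, on which Penk and Pdyn products act, and Sstr1, Sstr2, Sstr3 and Sstr5 of the 5 somatostatin receptors fell under the filter. Sstr2 had 0 counts in each female library and 3, 8 and 10 in males. By edgeR without a filter Sstr2 passed (5.88, adjusted p = 0.0776), a value that depends on the prior count, and the others under the filter did not. Sstr4 did not pass (-1.26 ± 0.55, adjusted p = 0.244).

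Of 13 processing genes 5 passed, all higher in males. Pcsk2, a convertase that cuts precursors within granules, was at 0.176, 0.266 and 0.350 CPM in females and at 0.519, 1.52 and 1.72 CPM in males (2.22 ± 0.51, adjusted p = 0.0797). By limma-voom Pcsk2 did not pass (adjusted p = 0.136). Scg5, the chaperone of Pcsk2, had a log2 fold change of 1.14 ± 0.20 (adjusted p = 0.0438), Cpe, the carboxypeptidase that trims the cut ends, of 0.75 ± 0.16 (0.0670), Pcsk6 of 0.64 ± 0.12 (0.0470) and Pcsk1n, an inhibitor of Pcsk1, of 0.69 ± 0.16 (0.0818). Pcsk1 itself did not pass (1.5 ± 0.53, adjusted p = 0.171). Cpe, Pam and Cpd were the most abundant, and Cpe measured 159, 214 and 215 CPM in females and 325, 290 and 377 in males. Pam, which amidates peptides such as CGRP, did not pass (0.37 ± 0.16, adjusted p = 0.230). The Schwann cell markers moved in the same direction as these genes, and their part in the processing results was not tested.

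Of 16 granule genes 5 passed, again all higher in males. Cadps, which primes granules for release, was at 0.0976, 0.124 and 0.175 CPM in females and 1.16, 2.80 and 3.43 CPM in males (4.18 ± 0.50, adjusted p = 0.0323). Ptprn2 (3.09 ± 0.56, adjusted p = 0.0470), Chgb (2.14 ± 0.46, adjusted p = 0.0666), Chga (1.78 ± 0.30, adjusted p = 0.0417) and Rab3a (0.69 ± 0.16, adjusted p = 0.0766) were the others. Chgb did not pass by limma-voom (adjusted p = 0.124), nor did Rab3a by edgeR with library size alone (adjusted p = 0.108). Male 1 was the lowest male for Cadps, Ptprn2 and Chgb. It was also the lowest for Sst, Scg2 and the summed central neuron markers. Among those markers it was not the lowest for Slc17a7, nor by TPM for Rbfox3. Chga did not follow that order, with 2.45, 2.45 and 2.79 CPM in males. Syt4 was the most abundant granule gene and did not pass (-0.21 ± 0.34, adjusted p = 0.761), and Rab3a and Ptprn followed it in level.

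Of 9 peptidases that break peptides down, Dpp4 and Anpep passed, both higher in females. Dpp4, which cleaves neuropeptide Y, was at 17.7, 24.2 and 14.7 CPM in females and 10.7, 8.88 and 10.2 CPM in males (-0.93 ± 0.19, adjusted p = 0.0642), a call that held without female 3 and was lost without any other library. Anpep was at 46.2, 53.7 and 37.3 CPM against 28.7, 25.0 and 20.8 CPM (-0.88 ± 0.17, adjusted p = 0.0533), but by TPM its sexes overlapped, with the length offset its log2 fold change turned to 0.13 (adjusted p = 0.820), and its call was lost without female 1, female 2 or male 3. Ece1, Mme and Anpep were the most abundant, and neither Ece1 (-0.20 ± 0.11, adjusted p = 0.366) nor Mme, which cuts enkephalins and substance P (0.59 ± 0.22, adjusted p = 0.193), passed. Other tissue markers are given beside these results. Of 9 tested muscle markers 2 passed higher in females, with summed levels of 280, 438 and 27.5 TPM in females and 9.16, 7.66 and 557 TPM in males. Adipocyte markers summed to 1420, 857 and 204 TPM in females and 168, 624 and 317 TPM in males, and 0 of 10 passed by edgeR, where 2 had an unadjusted p under 0.05, with 1 by DESeq2 and 0 by limma-voom. Immune cell markers summed to 247 to 514 TPM in females and 221 to 445 TPM in males. All 3 sums overlapped, and the part of these cells in the Dpp4 and Anpep results was not tested.

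**Figure D4:**
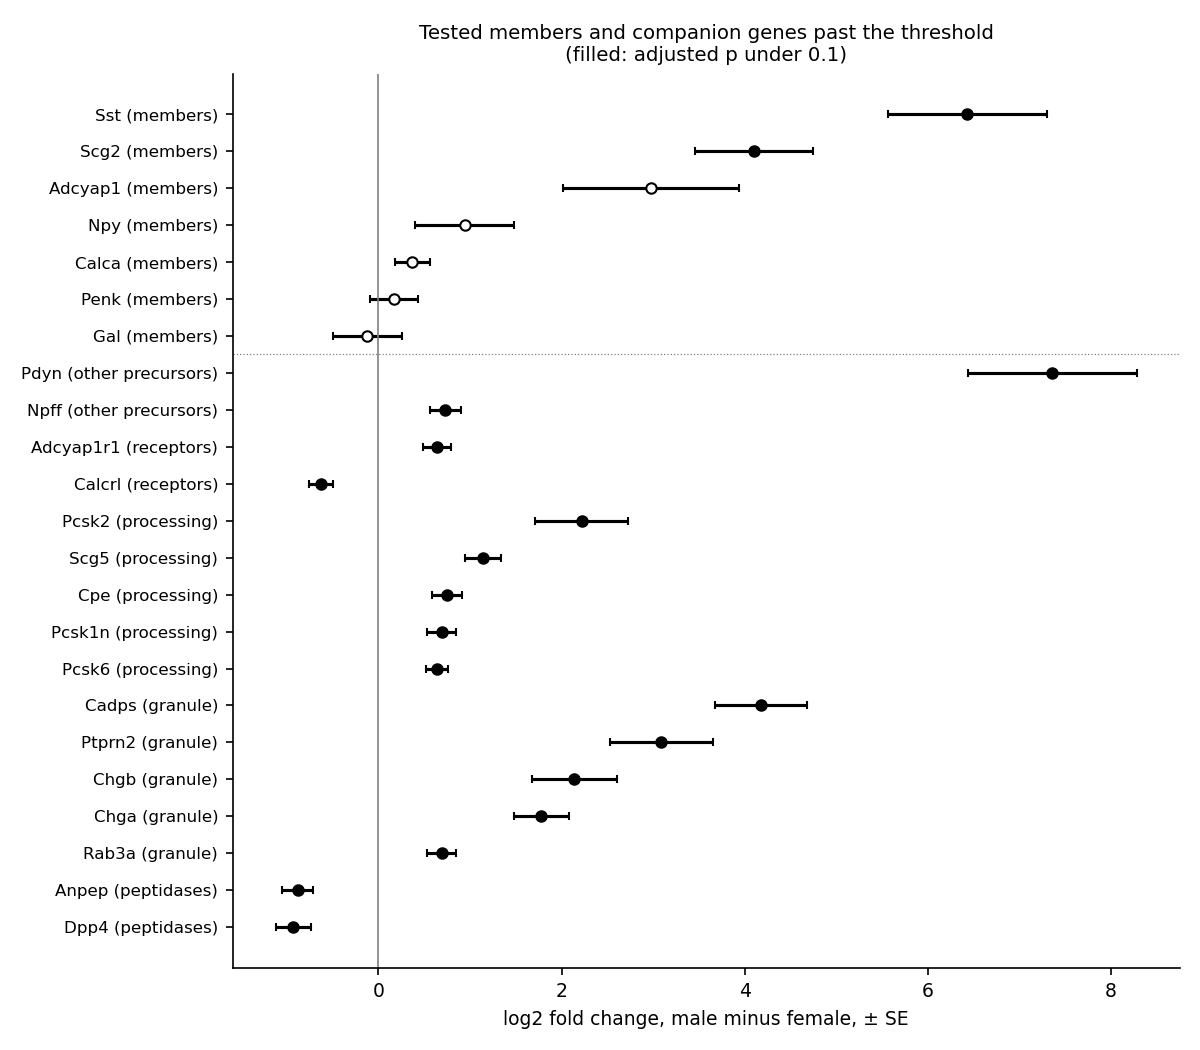
Log2 fold change, male minus female, ± SE for the 7 tested precursor genes (above the dotted line) and the 16 companion genes past the threshold, which are shown because they passed. Filled points are past an adjusted p of 0.1, among the members Sst at 6.43 and Scg2 at 4.10; the fitted value of Pdyn depends on the prior count since its females are at 0.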

How the data were processed

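Poly-A RNA of 6 sciatic nerve libraries was read paired-end after stranded TruSeq preparation. Trimmomatic 0.39, Salmon 1.5.2 and MultiQC 1.9 are named in the submitters' processing notes, and the study names GENCODE annotation on GRCm39. The authors deposited, per transcript, Salmon's estimated counts (not normalised), TPM values and effective lengths. TPM as deposited is corrected for length and scaled to the same total per library.

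Estimated counts of 140789 transcripts were summed per gene symbol and identifier, rounded and tested with edgeR 4.0.16 in R 4.3.3 (filterByExpr, TMM normalisation, quasi-likelihood F test with sex as the only term, Benjamini-Hochberg adjustment over all genes tested, threshold 0.1). The SE was the log2 fold change over the square root of F. P-values measure the spread between pools of 2 mice. Libraries were grouped by the labelled sex. No library was a copy of another, since the chi-square per degree of freedom within a sex was 48.1 to 145. The replicate numbers were not taken to pair libraries, since same-numbered deviations correlated at -0.0379, -0.3 and -0.295.

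Coordinates came from GENCODE M39 on GRCm39, in which 53700 of 54309 gene identifiers were found. The exon alignment used Biopython 1.88 and permutation tests scipy 1.17.1. Floors (3 counts) and 95% intervals cover counting error only. Alternatives were DESeq2 1.42.0 size factors and Wald test, library size alone, limma-voom (limma 3.58.1), no filter, a transcript length offset, a replicate block, a threshold of 0.05 and each library left out.

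The members and gene lists were chosen with earlier results of these data known. The text names all 10 members, in each companion list the genes past the threshold and the 3 with the highest mean TPM, and for each tested member the 3 tested protein-coding genes of mean CPM 1 or more most correlated with it in log2 CPM (prior count 2). Those for Npy are not reported here. Other genes were named after their values were seen.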

Additional observations from a re-analysis of the deposited data

How the results depend on the processing

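With DESeq2 size factors, library size alone, limma-voom, the length offset and a threshold of 0.05, Sst and Scg2 were the 2 members called, as by edgeR with TMM. DESeq2 and the fit without a filter added Adcyap1, for 3. Leaving out 1 library gave 0 to 3 members, with 0 without female 1 and without male 3. The replicate block called 2 members, 1 companion (Cadps) and 56 of all genes; the shared numbers did not pair the libraries. Companion calls were 26 by DESeq2 and 0 to 21 with 1 library left out. Over all genes, 971 passed, against 2436 by DESeq2, 1617 without a filter and 1 to 2612 with 1 library left out. The Calca share difference ran from -3.26 to 3.88 points with 1 library left out and was 0.17 from TPM. Gal turned to 0.02 with the length offset and ran from -0.25 to 0.12 with 1 library left out (positive without female 1 or male 2). Penk ran from -0.08 (without female 3) to 0.44. No such fit of either gene passed the threshold. Sst kept its direction in all 13 other fits (5.59 to 8.28), as did Scg2 (3.75 to 4.63), and each lost its call in 2 of them. The cause of these changes was not tested. A library held between 1 and 56 counts of Sst where any was found, so its level is imprecise, and Calcb, Tac1 and Vip fell under the filter.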
